A study of Oryza sativa with 16 samples.

Results

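A set of JAZ repressor (TIFY) genes of rice was followed across 16 poly(A) RNA-seq libraries from a study of H4.V, a variant of histone H4. The set held 9 gene identifiers out of 31407 annotated spans in the deposited tables, and 7 of the 9 had a span of their own. The identifiers Os10g0392400 and Os03g0402800 had no row of their own and were not measured here. The RefSeq table used for names lists 18 TIFY genes, so the set is not the whole TIFY family. The set was chosen with these data in view, with attention to whether unstressed wild-type (WT) seedlings stood apart, so the levels in unstressed WT seedlings relative to the other seedlings are a description and carry no test. The tables give no gene names beside the identifiers and none of the 7 could be paired with a named gene of the RefSeq table, so membership of the family rests on the list, the members are called by identifier and no individual role is given to any of them.

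Jasmonate is a plant hormone of wounding, defence and abiotic stress responses. JAZ proteins carry the TIFY motif and repress transcription factors such as the MYC proteins when the hormone is low. Active jasmonate joins the F-box protein COI1 to JAZ proteins, which are then ubiquitinated and degraded, and the MYC factors are released. Many JAZ genes are themselves switched on by jasmonate, which makes their transcripts a common readout of the pathway and resets the repression.

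All plants were of the indica rice line Pusa Basmati 1. The 4 seedling groups were WT and h4.v KO, a Cas9-derived knockout of H4.V, each grown without salt or with 120 mM NaCl, and per the labels seedlings were 20 days old, with 5 days in the dark and 15 days in the light, while the study's methods give them a younger age, a difference that was not resolved here. The 4 leaf groups, taken from mature leaves, were WT and plants carrying a transgene under the maize Ubiquitin promoter, which is active in most tissues, for H4.V (OE-H4.V), for canonical H4 (OE-H4) or for a chimera that joins the N-terminus of H4.V to the C-terminal remainder of H4 (OE-H4.Vs). Per the study, 1 type of the knockout mutations it obtained was taken for analysis, and the labels do not say which transgenic lines were sequenced. Each group had 2 libraries, described as biological duplicates. Levels are FPKM, fragment numbers that Cufflinks scaled to transcript length and to library size, with the 95% confidence interval that it gave for each library.

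Relative depth was inferred from the fragment numbers that the Cufflinks intervals imply, and set to 1 in the first WT seedling library. It ran from 0.737 to 1.20 in seedlings and from 0.545 to 0.859 in leaves. The estimate rests on 223 to 393 genes per seedling library and 123 to 147 per leaf library. The second WT seedling library was the deepest at 1.20, and the part of depth in the members' levels was not tested. Loci shorter than 300 bp held 0.997% to 7.54% of the FPKM of seedling libraries and 0.80% to 20.6% of that of leaf libraries. The gene Os05g0462900, which lies where the study's gene model places H4.V on chromosome 5, was listed at 0 in all 8 seedling libraries and at 3369 and 3162 FPKM in the 2 OE-H4.V leaf libraries. It was listed at 0 in the other 6 leaf libraries, so it marked the OE-H4.V leaves but could not check the knockout. The labelled tissues were not checked against marker genes, since no identifier could be paired with a name.

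Unstressed WT seedlings held far more JAZ/TIFY transcript than any other seedling group. The summed level of the 7 members was 1046 and 996 FPKM in the 2 unstressed WT libraries, 122 and 117 FPKM in h4.v KO, 135 and 113 FPKM in salt-treated WT and 133 and 136 FPKM in salt-treated h4.v KO. Outside unstressed WT, most of each sum was Os07g0615200. Its means were 96.3 FPKM in h4.v KO, 97.9 FPKM in salt-treated WT and 106 FPKM in salt-treated h4.v KO. In unstressed WT the largest part was Os03g0181100, at a mean of 465 FPKM. Both unstressed WT libraries lay above the 6 other seedling libraries for 7 of 7 members, and the same order was found in 16.6% of the 13933 genes tested in seedlings. Since the set was chosen on this contrast, nothing is read from that count. The Cufflinks intervals of the WT libraries and of the other 6 were apart for 6 members and overlapped for Os09g0439200. In bulk seedlings, fewer cells of a type and less RNA per cell cannot be told apart.

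**Figure D1:**
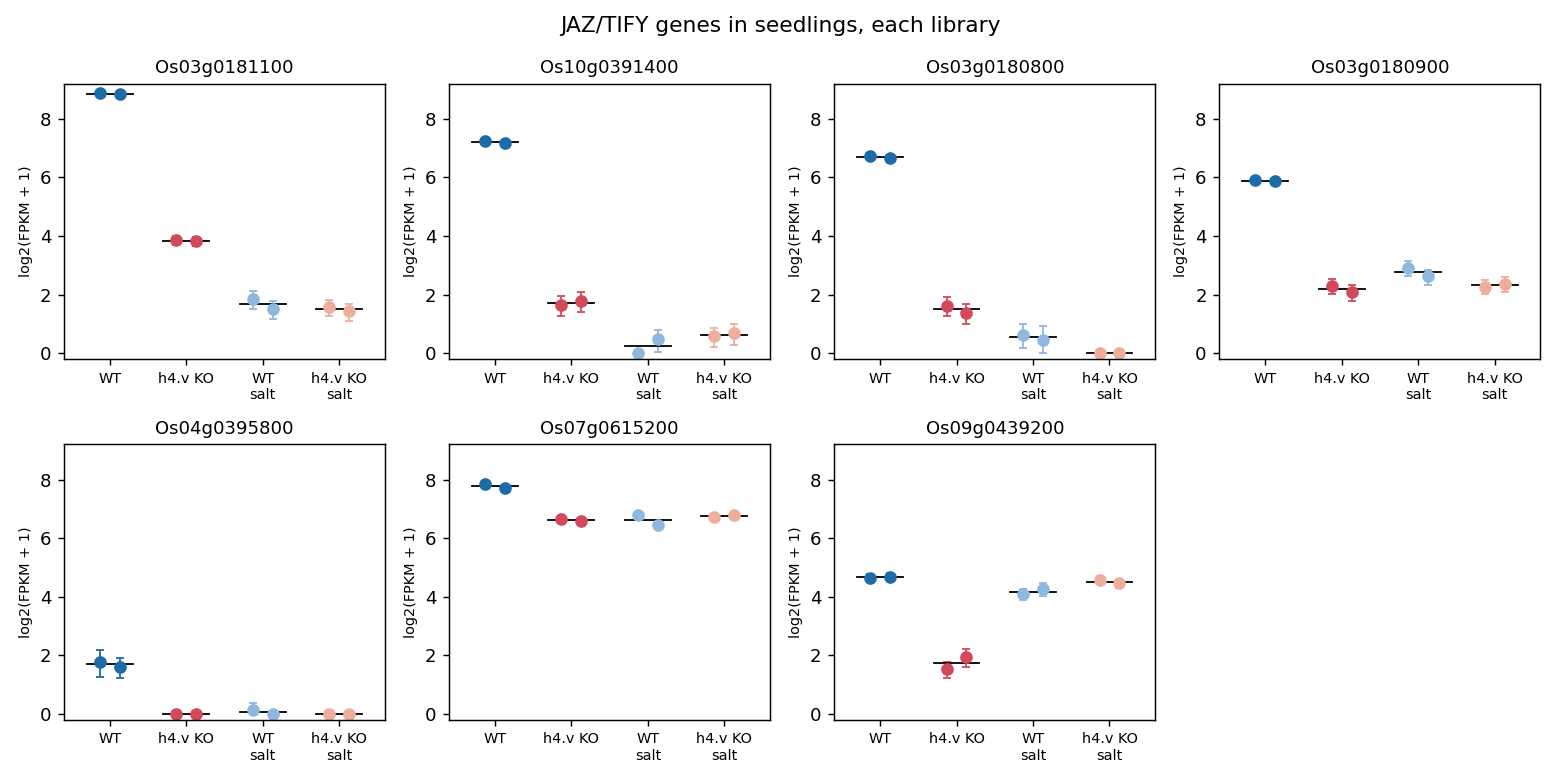
Each panel is 1 JAZ/TIFY gene, with 2 libraries per seedling group as points on a log2(FPKM + 1) axis, Cufflinks 95% intervals as error bars and the group mean as a black line. Unstressed WT stands highest in all 7 panels, by a wide gap in 5 of them, while Os07g0615200 stays at 86.8 FPKM or more everywhere and Os09g0439200 is low in unstressed h4.v KO.

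The 3 neighbouring members on chromosome 3 (coordinates as deposited, IRGSP1.0) showed the pattern at different heights. The first, Os03g0181100 at chr3:4248883-4249820, was the most abundant member in unstressed WT, with 472 and 458 FPKM. It was at 13.5 and 13.1 FPKM in h4.v KO, at 2.59 and 1.85 FPKM in salt-treated WT and at 1.96 and 1.69 FPKM in salt-treated h4.v KO. The h4.v KO libraries were thus intermediate, with a mean 34.9-fold below WT, and both salt groups lay lower still, 209-fold and 254-fold below WT for WT and h4.v KO.

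Its neighbour Os03g0180800 at chr3:4232003-4233038 was at 105 and 101 FPKM in unstressed WT. It was at 2.07 and 1.60 FPKM in h4.v KO, at 0.551 and 0.381 FPKM in salt-treated WT, and was listed at 0 in both salt-treated h4.v KO libraries. The lowest WT value was 48.7 times the highest value of the other 6 libraries.

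Between them on the chromosome, Os03g0180900 at chr3:4236723-4238058 was at 58.6 and 57.1 FPKM in unstressed WT. The other 3 groups lay close together, at 3.88 and 3.22 FPKM in h4.v KO, 6.48 and 5.14 FPKM in salt-treated WT and 3.84 and 4.17 FPKM in salt-treated h4.v KO. Here h4.v KO without salt was not above the salt groups, unlike in its neighbours.

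On chromosome 10, Os10g0391400 at chr10:13031179-13032006 was at 152 and 144 FPKM in unstressed WT and had the largest gap, its lowest WT value being 59.6 times the highest of the others. It was at 2.16 and 2.41 FPKM in h4.v KO, at 0 and 0.382 FPKM in salt-treated WT and at 0.491 and 0.606 FPKM in salt-treated h4.v KO. The least abundant member, Os04g0395800 at chr4:19492604-19497140, was at 2.43 and 2.03 FPKM in unstressed WT and was listed at 0 in 5 of the other 6 seedling libraries, the exception being 0.0983 FPKM in 1 salt-treated WT library. It did not pass the filter of a mean of 1 FPKM over seedlings and entered no fit.

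The remaining pair stayed nearer its unstressed WT level, Os07g0615200 in all 3 other groups and Os09g0439200 in the salt groups only. At chr7:25348059-25350242, Os07g0615200 was at 232 and 210 FPKM in unstressed WT and between 86.8 and 109 FPKM in the other 6 seedling libraries. The 3 other groups had means of 96.3, 97.9 and 106 FPKM, and their libraries overlapped except that both salt-treated h4.v KO libraries lay above both unstressed h4.v KO libraries. The second, Os09g0439200 at chr9:16273521-16275268, was at 24.1 and 24.6 FPKM in unstressed WT, 15.9 and 18.2 FPKM in salt-treated WT and 22.8 and 21.0 FPKM in salt-treated h4.v KO. Only its unstressed h4.v KO libraries stood apart, at 1.89 and 2.84 FPKM. Its unstressed WT libraries lay above the others by a factor of only 1.06, the smallest margin of the set, with overlapping intervals. It was the 1 member of 7 whose h4.v KO libraries were below all other seedlings, an order found in 9.35% of genes tested.

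On the log2(FPKM + 1) scale the 6 members that passed the filter were lower than in unstressed WT in all 3 other groups. In h4.v KO, 5 of 6 were lower by over 1.5, as were 4.45% of all genes tested. In salt-treated WT this held for 4 of 6, against 8.59% of genes, and in salt-treated h4.v KO for 4 of 6, against 9.21%. The members' median difference was −4.36, −4.64 and −5.07 in these groups, while that of all genes was 0.13, 0.06 and 0.01. These 3 comparisons share the unstressed WT libraries and were those the set was chosen on, so the values are given side by side with no test. One of the 6, Os03g0180800, passed the filter through unstressed WT alone, and 5 would have passed on the other 6 seedling libraries.

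**Figure D2:**
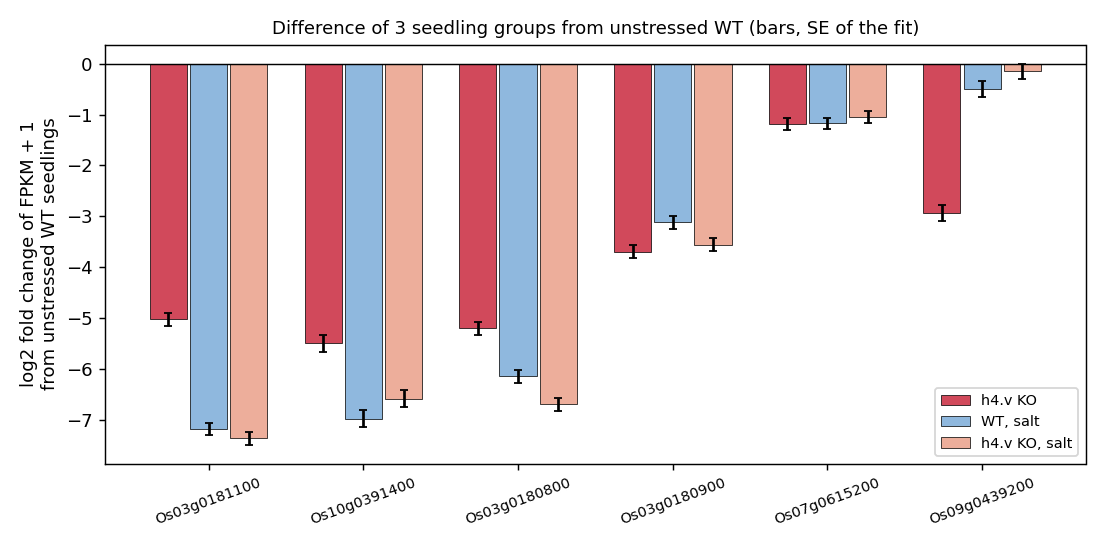
Bars give the fitted log2 fold change of FPKM + 1 from unstressed WT seedlings for the 6 members that passed the filter, with the standard error of the fit, for h4.v KO, salt-treated WT and salt-treated h4.v KO. The first 4 genes lie between −3.12 and −7.36 in every group, Os07g0615200 lies between −1.05 and −1.19, and Os09g0439200 lies at −2.93 in h4.v KO but at −0.50 and −0.15 in the salt groups.

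The member Os09g0439200 also differed from the rest in its course over the 8 seedling libraries. Among the other 5 members that passed the filter, the lowest pairwise Pearson r of log2(FPKM + 1) was 0.912, whereas Os09g0439200 had r between 0.132 and 0.498 with them. These r are over 8 libraries of 4 groups, where the unstressed WT libraries weigh heavily, and are a description.

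Salt-treated h4.v KO was compared with unstressed h4.v KO. Of the 5 members that would pass the filter without unstressed WT, Os03g0181100 fell 7.27-fold, from a mean of 13.3 ± 0.23 to 1.83 ± 0.19 FPKM (SD, n = 2), and Os10g0391400 fell 4.17-fold, from 2.29 ± 0.18 to 0.549 ± 0.082 FPKM (SD, n = 2). Their log2 fold changes were −2.34 (SE 0.13, limma adjusted p = 5.76e-05) and −1.09 (SE 0.17, limma adjusted p = 0.00335). However, Os10g0391400 averaged only 1.01 FPKM over the seedling libraries other than unstressed WT, against the filter of 1 FPKM. It reached this through unstressed h4.v KO, the higher group of this comparison, so nothing is read from its p-value. In the other direction, Os09g0439200 rose 9.27-fold, from 2.36 ± 0.67 to 21.9 ± 1.3 FPKM (SD, n = 2), with a log2 fold change of 2.78 (SE 0.15, limma adjusted p = 6.00e-05).

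The other 2 of these 5 did not pass the test. The log2 fold change was 0.14 for both Os03g0180900 (SE 0.13, limma adjusted p = 0.422) and Os07g0615200 (SE 0.12, limma adjusted p = 0.366). In all, 2 of 5 members fell and 1 rose, where 26.9% of all genes tested fell and 19.1% rose. The 2 falls include Os10g0391400, from whose p-value nothing is read. The members' median was 0.14 against −0.11 over all genes. With only 5 members beside these shares, nothing is read from the counts. The level of Os03g0180800, given no test because it passed the filter through unstressed WT alone, went from 2.07 and 1.60 FPKM to listed at 0 in both libraries.

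Unstressed WT libraries still entered the filter and the estimate of the spread. With those libraries in neither, an alternative chosen after seeing the data, the limma adjusted p was 0.000502 for Os03g0181100, 0.0120 for Os10g0391400 and 0.000405 for Os09g0439200. Nothing is read from the value for Os10g0391400, which still passed this filter through unstressed h4.v KO. With a pseudocount of 0.1 in place of 1, the fall of Os10g0391400 no longer passed (limma adjusted p = 0.0684).

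Under salt, the knockout and WT were compared directly. Of the same 5 members, 0 passed the test by limma, at adjusted p from 0.165 to 0.602, while 1.31% of genes tested were lower and 1.07% higher in h4.v KO. At an unadjusted p under 0.05 there was 1 of 5, against 18.8% of all genes. This was Os03g0180900, with a mean of 5.81 ± 0.95 FPKM in the WT libraries and of 4.01 ± 0.23 FPKM in the knockout (SD, n = 2), a log2 fold change of −0.44 (SE 0.13). For Os09g0439200 the difference was 0.35 (SE 0.15), for Os10g0391400 0.40 (SE 0.17) and for Os03g0181100 −0.18 (SE 0.13). For Os07g0615200 it was 0.13 (SE 0.12), and −0.035 without salt-treated WT replicate 2. The untested Os03g0180800 had 0.551 and 0.381 FPKM in the WT libraries and none listed in h4.v KO.

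In mature leaves, 1 member was measured above a trace. The other 6 reached at most 1.14 FPKM in any of the 8 leaf libraries, and Os03g0180800, Os10g0391400 and Os04g0395800 were listed at 0 in all 8. The transcripts of Os03g0181100 were listed at 0 in 2 of 8, with a median of 0.613 FPKM. Levels of Os09g0439200 were 0.673 and 0.912 FPKM in OE-H4, the latter from a locus covering 35.8% of its span. Both WT leaf libraries listed Os09g0439200 at 0. With no filter on low values its log2 fold change in OE-H4 was 0.84 (limma adjusted p = 0.0223). Nothing is read from this, since its mean of 0.247 FPKM over leaves lay below the filter. A value of 0 here means that no assembled locus lay in the span or that Cufflinks gave it none. Most leaf libraries had a lower estimated depth than the seedling libraries.

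The measurable one was Os07g0615200, the member with the highest level outside unstressed WT seedlings. WT leaves held 18.2 and 15.5 FPKM of it, against 21.8 and 26.3 FPKM in OE-H4.V, 38.3 and 31.0 FPKM in OE-H4 and 27.7 and 27.3 FPKM in OE-H4.Vs. Each overexpressor group lay above both WT libraries, and OE-H4 lay above the other overexpressors. In OE-H4 the level rose 2.05-fold over WT (log2 fold change 0.99, SE 0.17, limma adjusted p = 0.00894), where 15.1% of 11292 genes tested in leaves were higher and 7.79% lower, and the median of all genes was 0.18. In OE-H4.V the difference was 0.49 (SE 0.17, limma adjusted p = 0.159), against 3.75% of genes called higher and 2.42% lower, and in OE-H4.Vs it was 0.68 (SE 0.17, limma adjusted p = 0.0622), against 4.64% higher and 2.31% lower. The rise in OE-H4 did not pass without WT leaf replicate 2 (0.88) or without OE-H4 leaf replicate 1 (0.84), at a limma adjusted p of 0.0616 in both cases. Over all settings, scaling included, the log2 fold change in OE-H4 ranged from 0.80 to 1.14. Differences among the 3 overexpressors were not tested, and the comparisons with WT share the WT leaf libraries. The share of FPKM in loci shorter than 300 bp was 19.9% and 0.80% in the 2 WT leaf libraries and 0.958% and 11.5% in OE-H4, and its part in the result was not tested.

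**Figure D3:**
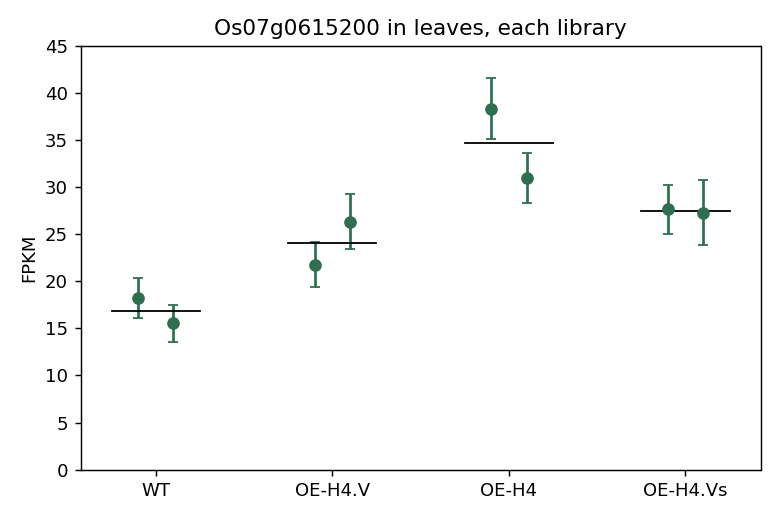
Points are the FPKM of Os07g0615200 in each of 8 leaf libraries, with Cufflinks 95% intervals as error bars and the group mean as a black line, on an axis starting at 0. WT leaves are lowest at 15.5 and 18.2 FPKM and OE-H4 leaves highest at 31.0 and 38.3 FPKM.

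The pattern of the set was shared by other genes of the tables. With the mean standardised profile of the 6 members, Os03g0181100 itself had r of 0.927 and Os09g0439200 of 0.492, the others 0.963 or more. Unstressed WT weighs heavily in these r, which are a description. With that profile, 259 of 8266 genes averaging 5 FPKM or more had r of at least 0.95 over the 8 seedling libraries, 3.13% of them. Members, genes on the gene lists drawn up beforehand and spans without an identifier were left out of these genes. Among those kept, the 5 most similar were Os03g0278200 (r = 0.999), Os09g0379900 (r = 0.998), Os02g0802700 (r = 0.997), Os07g0580500 (r = 0.997) and Os05g0162800 (r = 0.997). Of these, Os09g0379900 was at 34.5 and 34.1 FPKM in unstressed WT and at most 0.795 FPKM in the other seedling libraries, and Os05g0162800 was at 24.8 and 19.7 FPKM and listed at 0 in the other 6. Of 11 tested genes within 20000 bp of a member, other members left out, 0 had both unstressed WT libraries above the other 6, beside the 16.6% of all genes tested, and nothing is read from so small a number.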

How the data were processed

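Poly(A) RNA of 16 rice libraries was sequenced with a strand-specific kit. Per the labels and methods, the authors trimmed reads with Trimmomatic, aligned them with HISAT2 to IRGSP1.0 and ran Cufflinks 2.2.1. The deposited FPKM values are given per assembled locus with confidence bounds, and hold no read counts, so count tests were not used. A member's level was the sum, over loci lying at least 50% in its span, of FPKM times the share of the span overlapped, which understates partly assembled loci. How reads shared by similar family members were divided is not given in the sources used here, so the levels of close copies are uncertain to that extent. Genes averaging 1 FPKM or more, with no locus spanning 2 genes, were tested, 13933 in seedlings and 11292 in leaves. All 8 libraries of a tissue were fitted with limma 3.58.1 (R 4.3.3) on log2(FPKM + 1), with p-values adjusted by Benjamini-Hochberg over all genes and calls at 0.05. A member that passed the filter only through unstressed WT seedlings was given no test. Fold changes on this scale understate those of low genes. The fit was checked on simulated data.

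The members and gene lists were chosen with earlier results of these data known. Named genes were the members and the 5 genes most similar in profile among those kept for that ranking, which left out the gene lists. Lists of other jasmonate genes, promoter motifs, sequences and tissue markers were not analysed here, because no identifier could be paired with the RefSeq table used (assembly ASM3414082v1). Alternatives covered the pseudocount, the filter, scaling, locus matching, call threshold, replicate block and leaving out each replicate. With 2 libraries per group, the p-values rest on the spread within groups, pooled over all groups of a tissue and moderated across genes by limma. They cover only these libraries.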

Additional observations from a re-analysis of the deposited data

Results flagged for a closer look

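In 4 cases a member's differences had opposite signs in 2 settings, with no overlap between the libraries compared in either. These differences between settings were not tested, because each involves unstressed WT seedlings, on which the set was chosen.

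The salt effect on Os09g0439200 was 2.78 in h4.v KO and −0.50 in WT on the log2 scale, a difference of 3.28. The same 4 groups give the knockout effect on Os09g0439200 as 0.35 with salt, which did not pass (limma adjusted p = 0.293), and −2.93 without, again 3.28 apart. The salt effect on Os07g0615200 was 0.14 in h4.v KO, which did not pass the test (limma adjusted p = 0.366), and −1.17 in WT, a difference of 1.32. The knockout effect on Os10g0391400 was 0.40 with salt, which did not pass (limma adjusted p = 0.281), and −5.50 without, a difference of 5.90, where its levels under salt were at or below 0.606 FPKM in both genotypes.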

How the results depend on the processing

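The unstressed WT libraries stayed above the other seedling libraries for 7 members in all 12 alternatives. Those that left out 1 library could not break this order, so only the changes of scaling and locus matching could have altered it. The set was chosen on this order. Changes of the filter, the replicate block and leaving out a library of a group not compared cannot change a member's fold change. In those cases only its adjusted p-value could move. With them counted, tested member values kept their direction and side of the threshold in 214 of 218 cases. The exceptions were Os07g0615200 between the salt-treated genotypes, which went from 0.13 to −0.035 (limma adjusted p = 0.896) without salt-treated WT replicate 2 and ranged from −0.035 to 0.29 over the libraries left out, the fall of Os10g0391400 with salt in h4.v KO, which did not pass with a pseudocount of 0.1, and the rise of Os07g0615200 in OE-H4 leaves, which did not pass without either of 2 libraries, as given above. Values against unstressed WT moved by more than the replicate spread in 27 of 288, with 0 reversed. Under the cut-offs of p below 0.05 without adjustment and a log2 change beyond 1.5 either way, 2 members were called for salt in h4.v KO, in place of 3, and 0 for OE-H4 leaves, in place of 1. With unstressed WT in neither filter nor fit, chosen after seeing the data, the genes called between the salt-treated genotypes went from 1.07% to 0.627% higher and from 1.31% to 0.620% lower, and the members called were as before. With no filter on low values, 2 were called in OE-H4 leaves, the second being Os09g0439200, from which nothing is read, as given above. Leaving out 1 library at a time gave 0 to 1 called in OE-H4 leaves. Median-of-ratios scaling shifted the median of all genes by −0.13 for h4.v KO against WT seedlings and by −0.18 for OE-H4 against WT leaves. It changed the share of calls that were higher from 65.9% to 47.1% for OE-H4 and from 45.02% to 55.8% for h4.v KO against WT under salt. For salt in h4.v KO this share went from 41.4% to 49.6%. The shares of all genes called higher or lower thus depend on the scaling. Replicate numbers did not pair the samples (r of deviations −0.081 to 0.109), and the fit with the replicate number as a block changed no member's call. Depth limits values near 0, where an unassembled locus is listed at 0. The cause of these changes was not tested.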
